A study of Mus musculus with 10 samples.

Results

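Brain was set directly against testis on a splicing array, 1 pooled total RNA sample of each, as 2 of the 10 tissues of CD1 mice in the study. CD1 is an outbred strain, and every sample was pooled mouse tissue of that strain. Age, sex and the number of pooled animals are not stated in the labels. The other 8 tissues were heart, intestine, kidney, liver, lung, muscle, salivary and spleen, as the labels name them, and serve below to ask which of the pair stood apart and what both shared. With 1 sample per tissue there was no replicate and no test of any difference: the sizes and counts below describe these arrays, and no p-value is given.

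All 3126 alternative splicing events on the array entered the comparison. Each has 7 probes. Those called C1 and C2 lie in the exons that flank the alternative exon, and A lies in the alternative exon itself. C1:A and A:C2 cross the junctions that form when the exon is kept, and C1:C2 crosses the junction that forms when it is skipped. What the probe marked INT measures is not given in the sources used here. INT probes were the dimmest kind, with medians of 1.32 in brain and 1.23 in testis, and they serve below as a yardstick for weak signal: the value that 95% of an array's INT probes stay under, 3.07 in brain and 3.09 in testis, is called its detection limit. Probe values ran up to 8.66 on a compressed scale that stops at 0 and whose base is not stated, so differences are in units of this scale, with no folds. The array medians were 2.19 in brain and 2.12 in testis, and 2.18% and 1.38% of the probes were listed at 0. Every array was centred on its median, which lowers the brain minus testis difference of each probe by 0.0769 units. The shift also lowers the level differences, and it cancels in the junction and body indices defined below. The files pair the event numbers with no gene names. The identity of the tissues therefore could not be checked against marker genes, and events are named by their numbers alone.

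An internal exon is kept or skipped depending on proteins that bind the pre-mRNA near its splice sites and help or block the spliceosome. Brain and testis are both known for rich programmes of alternative splicing. Neurons make splicing regulators of the Nova, Rbfox and Elavl families and replace the repressor Ptbp1 with its relative Ptbp2. Testis holds germ cells that pass through meiosis and then reshape into sperm, and these cells transcribe an unusually wide range of genes. The comparison therefore has to separate how much of a transcript was present from how its exon was spliced. Here the level of a transcript is the average of its flanking probes C1 and C2. The junction index averages the inclusion junctions C1:A and A:C2 and subtracts the skipping junction C1:C2. The body index is A minus the level. A higher index is read as a larger part of the transcript with the exon.

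Transcripts that set testis apart outnumbered those that set brain apart. The level was higher in brain for 28 events, 0.896% of the 3126, and higher in testis for 107, 3.42%, by at least 2.92 units. This threshold is 4 robust SDs (0.731 units each) of the level differences of all 45 tissue pairs. When quantile normalization gave every array the same distribution, the counts were nearer to each other, 47 in brain and 62 in testis, so the share of calls that were higher in brain was 43.1%, against 20.7% with centring. All 28 brain-high events were called under both scalings, and 62 of the 107 testis-high events were. The called difference nearest to the threshold was 2.93 units, and the nearest uncalled one was 2.92. Fewer cells of a type and less RNA per cell cannot be told apart in such pooled tissue.

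With centring the testis-high transcripts were also the more extreme ones. Their differences ran from 2.93 to 6.65 units in size with a median of 3.75, against 2.97 to 4.29 with a median of 3.25 for the brain-high transcripts. After quantile normalization the median sizes were closer, 3.35 for the 47 brain-high and 3.60 for the 62 testis-high events, with highest sizes of 4.66 and 6.17. In the brain-high set the deposited level had a median of 4.999 in brain and 1.67 in testis. In the testis-high set the median was 1.78 in brain and 5.56 in testis. The lower tissue was thus near the INT probes in both sets. For none of the 28 were C1 and C2 both above the detection limit in testis, and for only 3 of the 107 were they so in brain. These differences therefore mostly separate a clear signal from a weak one, and their exact sizes depend on the weak side.

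The exon and junction probes followed the flanks more closely in the testis-high set. All 6 exon and junction probes were higher in testis in 100 of the 107 events, and each of the 6 was past the level threshold in 32. In the brain-high set all 6 were higher in brain in 24 of 28, but each passed the threshold in only 1. There the flanks were higher in brain by medians of 3.24 (C1) and 3.53 (C2), A by 2.01, C1:A by 1.66, A:C2 by 2.70 and C1:C2 by 2.12. In the testis-high set the same medians, brain minus testis, were -3.82, -3.82, -3.42, -3.32, -3.33 and -3.30. Across all 3126 events the C1 and C2 differences correlated at r = 0.79 (Spearman's rho 0.77). Both probes of an event share a transcript and a pair of arrays, so this describes the agreement of the probes and not of animals.

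Among level calls with both flanks above the INT median in both tissues, Ben4004 and Ben719 were the highest in brain. Ben4004 read 6.07 (C1) and 6.64 (C2) in brain, against 1.64 and 2.34 in testis. The other 8 tissues read between 1.24 and 4.17 for C1 and between 2.22 and 4.99 for C2, with heart on top for both. Its level was 4.29 units higher in brain, and heart was the only other tissue with both flanks above its detection limit. Ben719 read 5.95 (C1), 5.36 (A) and 5.72 (C2) in brain, against 1.72, 2.31 and 1.64 in testis. In the other 8 tissues C1 stayed between 0.500 and 1.25 and C2 between 0.973 and 2.08, so brain was alone. The level of Ben719 was 4.07 units higher in brain.

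At the other end, Ben1814 read 1.94 (C1) and 1.74 (C2) in brain, against 7.36 and 7.12 in testis. The other 8 tissues, at 0.806 to 2.07 for C1 and 1.01 to 1.92 for C2, did not overlap with testis. Its brain minus testis level difference was -5.48. Ben353 read 2.18 (C1), 2.22 (A) and 1.78 (C2) in brain, against 7.42, 7.54 and 7.23 in testis, a level difference of -5.42. It differed from Ben1814 in the other tissues. There C1 lay between 2.37 and 3.38 and C2 between 2.47 and 3.35, all above brain, so Ben353 was highest in testis and lowest in brain.

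**Figure D1:**
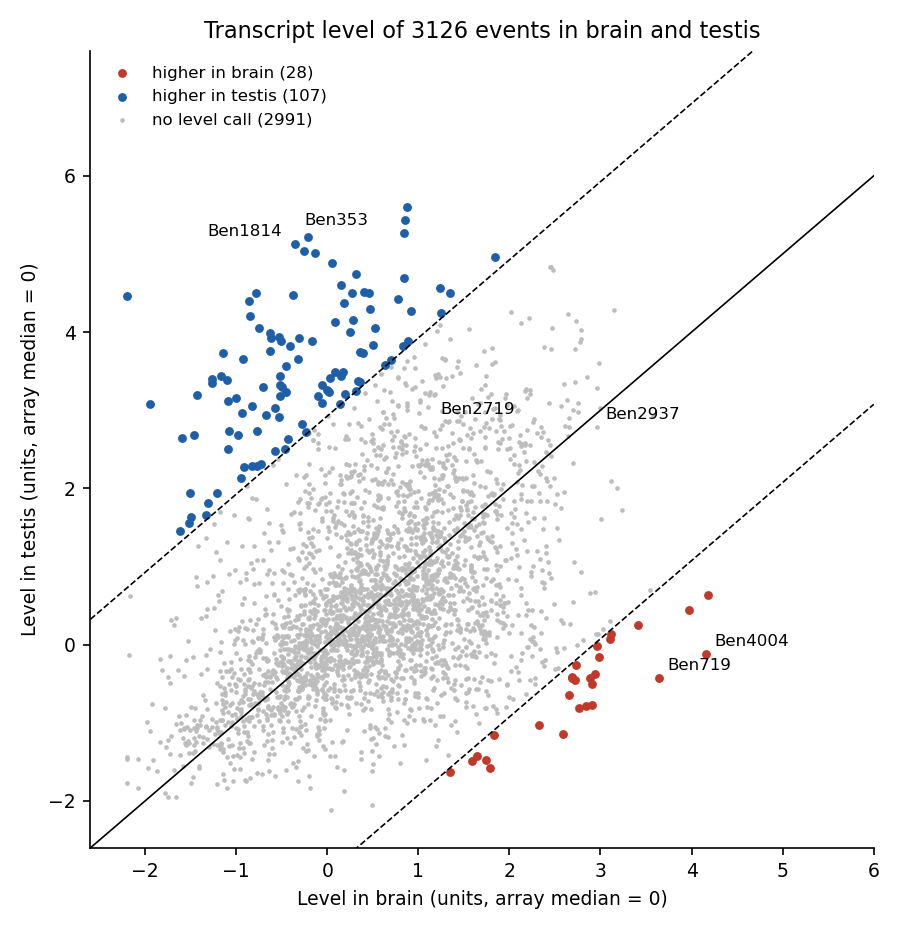
Transcript level (mean of C1 and C2, units, array median at 0) of the 3126 events in brain (horizontal) and in testis (vertical). The solid line marks equal levels and the dashed lines the threshold of 2.92 units; 28 events (red) lie past it on the brain side and 107 (blue) on the testis side, and the named events are labelled.

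In nearly all level calls the higher tissue was the one farther from the other 8. The selection leaves little room for another outcome. The other 8 had a median deposited level of 1.80 in the brain-high set and 1.62 in the testis-high set. Values stop at 0, so the lower tissue could not lie far below them. Brain lay farther than testis from the median of the other 8 in 27 of the 28 brain-high events. Testis lay farther in 106 of the 107 testis-high events. The median distance from the other 8 in the brain-high set was 3.23 for brain and -0.12 for testis. In the testis-high set it was -0.03 for brain and 3.995 for testis. Brain alone was outside the range of the other 8 in 20 brain-high events, and testis alone in 68 testis-high events. In 5 brain-high events brain was above all other tissues and testis below them all. The mirror image, with brain lowest and testis highest, was found in 20 testis-high events, Ben353 among them. In 2 brain-high and 17 testis-high events both tissues were above the other 8 and still differed from each other by more than the threshold.

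Single tissues sided with the higher member of the pair in few events. Muscle was nearer to brain than to testis in 7 of the 28 brain-high events, the most of the 8 tissues, followed by heart in 4, and liver in only 1. In the testis-high set liver was nearer to testis in 14 of the 107 events and kidney in 9, whereas salivary was in 1 and lung in 2. The same counts over all events were not made.

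Exon inclusion was compared next. An exon was called when its junction index differed by at least 2.22 units, which is 4 robust SDs (0.554 units each) of the index differences of all 45 pairs. The body index had to differ in the same direction, and the level had to exceed the lowest 25% of all values in both tissues. Of the 2653 exons that met the condition on level, 51 were more included in brain (1.92%) and 32 more skipped in brain (1.21%), together 83 (3.13%). The index passed the threshold in 88 exons, and the body index opposed it in 5 of these. Where A hardly differs, the flanks alone set the sign of the body index, so its agreement is not independent of level. In Ben2172, for example, A differed by 0.03 and C1 by -3.60. The A probe itself was higher in the including tissue in 30 of the 51 and in 24 of the 32. The nearest index differences on both sides of the threshold were 2.23 and 2.21. Called differences had a median size of 2.77 units for inclusion in brain, with a range of 2.25 to 5.004. For skipping in brain the median size was 2.74, and the range was 2.23 to 4.87. Over the tested exons the junction and body index differences correlated at r = 0.50 (rho 0.42). The indices share no probe, but the probes share transcripts and arrays.

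Brain and testis made the highest count of exon calls of any pair with this rule, ahead of muscle and testis with 81, while the other 44 pairs had between 13 and 81 with a median of 46.5. The first place depended on the setting. After quantile normalization 38 exons were more included and 34 more skipped in brain, and 33 of the 51 and 27 of the 32 were still called. That total of 72 had rank 3, behind 77 for brain and intestine and 77 for brain and kidney. With C1:A as the only inclusion junction it was 93, rank 3, and with A:C2 alone it was 63, rank 4. When C1 and C2 each had to be above the detection limit in both tissues, 10 of 354 exons were called (2.82%), and the pair had rank 12. By level calls brain and testis, with 135 (4.32%), had rank 7. The other 8 pairs with testis had 125 to 160 level calls and 56 to 81 exon calls. The other 8 pairs with brain had 36 to 135 level calls and 51 to 69 exon calls.

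**Figure D2:**
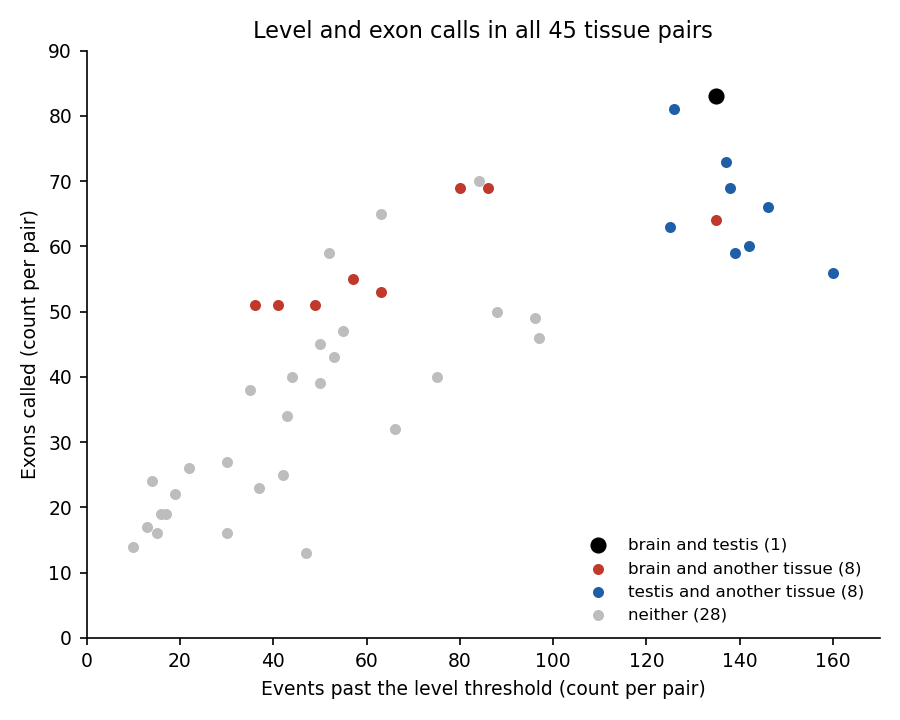
Number of events past the level threshold (horizontal) and of exons called (vertical) in each of the 45 tissue pairs, 1 point per pair. Brain and testis (black) stand at 135 level calls and 83 exon calls; pairs that share a tissue are not independent.

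The exon calls differed in which probes carried them. In the set more included in brain, the median skipping junction was 2.39 units lower in brain, while the median differences of C1:A and A:C2 were only 0.11 and 0.32 and that of A was 0.21. The flanks were lower in brain there, with medians of -1.99 (C1) and -1.69 (C2). The skipping junction was higher in testis in 48 of these 51 exons, and it contributed more to the index difference than the inclusion junctions did in 37. In 19 of the 51 neither inclusion junction was higher in brain. In these the call rested on C1:C2, which was higher in testis, and no inclusion junction was higher in brain. The level was higher in testis, by any size, in 41 of the 51 and by the level threshold in 17.

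In the set more skipped in brain, both sides took part. The median skipping junction was 1.65 units higher in brain, and the median brain minus testis differences were -0.74 for C1:A, -0.59 for A:C2 and -0.80 for A. The A probe was higher in testis in 24 of the 32 exons and the skipping junction higher in brain in 25. The skipping junction contributed more than the inclusion junctions in 17. Neither inclusion junction was higher in testis in 6. The level was higher in brain in 19 and higher in testis in 13, and it passed the level threshold in 2 and 2 of them.

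In a reciprocal call both inclusion junctions are higher in one tissue and the skipping junction is higher in the other. It was counted by direction alone, so the difference on either side could be small. In Ben4192 C1:A and A:C2 differed by only 0.29 and 0.40 beside -3.12 for C1:C2, and in Ben1174 C1:C2 differed by only 0.10. Of the 83 calls, 35 (42.2%) were reciprocal, 20 more included in brain and 15 more skipped in brain. In the 20, the medians of brain minus testis were 1.24 for C1:A, 1.41 for A:C2 and 1.23 for A, and -1.42 for C1:C2. Their median flank differences were -0.31 for both C1 and C2, but single exons differed both ways. C1 differed by -3.25 in Ben4192 and by 1.91 in Ben4021, and only 9 of the 20 had a level within 1 robust SD. In the 15, the medians were -0.88 for C1:A, -0.62 for A:C2, -0.64 for A and 1.59 for C1:C2, with C1 and C2 higher in brain by 0.90 and 1.01.

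**Figure D3:**
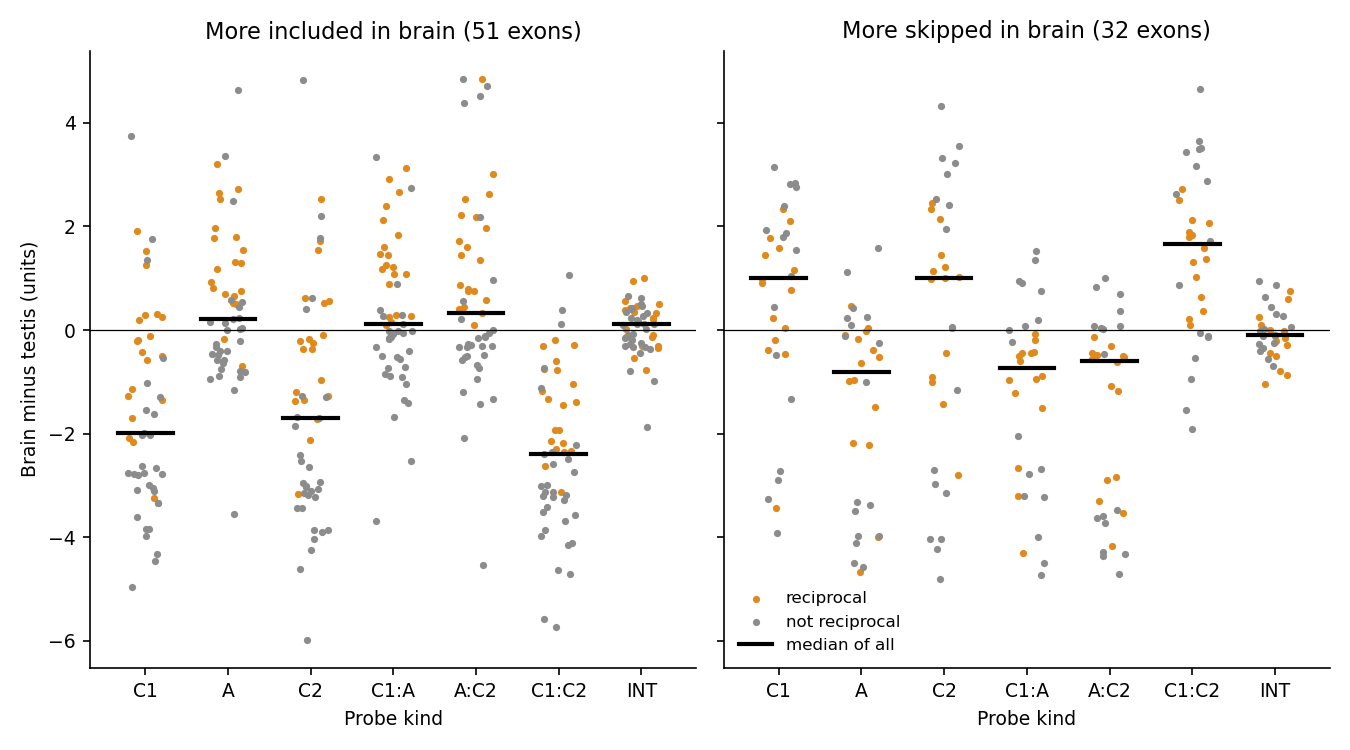
Brain minus testis difference (units) of each probe kind in the 51 exons more included in brain (left) and the 32 more skipped in brain (right), 1 point per exon, with the reciprocal calls in orange and the others in grey. The black bars are medians of all exons in the panel: the skipping junction C1:C2 has the largest median in both, at -2.39 and 1.65, and INT lies near 0.

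Calls were rarer where the transcript was equally abundant. Of 1468 tested exons whose level differed by less than 1 robust SD, 16 were called (1.09%), 11 more included and 5 more skipped in brain. Of the 97 tested exons on transcripts with a level call, 23 were called. The SD of the index difference was 0.703 units among these level-matched exons and 1.35 where the level differed by 2 robust SDs or more. Level and index differences had no common direction over the tested exons (r = -0.01, rho 0.08). Among the calls they tended to oppose each other. The level was higher in testis in 41 of the 51 more included in brain, with a median brain minus testis level difference of -1.75. It was higher in brain in 19 of the 32 more skipped in brain, with a median of 0.78. The level-matched calls were mostly reciprocal, 9 of the 11 and 4 of the 5. In the 11, brain minus testis had medians of 1.08 for C1:A, 1.61 for A:C2, 0.82 for A and -1.03 for C1:C2. In the 5 the medians were -0.94, -0.48, -0.999 and 1.03. Among the 10 calls whose flanks cleared the detection limit in both tissues, 7 were more included and 3 more skipped in brain, and 9 were reciprocal (6 and 3).

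Ben1290 had the highest index difference among reciprocal calls more included in brain. Its A probe read 3.99 in brain, against 1.38 in testis, and the other 8 tissues read between 0.140 and 2.08. C1:A read 4.51 in brain and 2.60 in testis, and A:C2 read 5.203 in brain and 3.16 in testis. C1:C2 read 4.08 in brain and 6.33 in testis, and between 2.04 and 3.14 in the other 8. The junction index, after centring, was 0.78 in brain and -3.45 in testis, and the other 8 lay between -1.19 and -0.05. Both tissues expressed the transcript more than the rest (C1 at 4.77 in brain, 5.96 in testis and at most 3.33 elsewhere). Their indices lay on opposite sides of the other 8. Signal in those 8 was weak, with C1:A at 1.47 to 2.70 and A:C2 at 1.94 to 3.30, so their indices say little about splicing there. The index difference was 4.23 units and the body index difference 3.86.

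Ben3898 followed, with an index of -0.26 in brain and -4.01 in testis. Its skipping junction read 2.90 in brain and 5.17 in testis. The A probe read 3.14 in brain and 1.76 in testis, and C1:A read 2.07 in brain and 0.541 in testis, a value below the INT median. Brain was not exceptional here. Its index lay inside the range of the other 8, which was -2.65 in kidney to 0.71 in heart, while testis was below them all. The level difference of Ben3898 was -2.10, so testis had more of the transcript and more of its skipped form.

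Ben1174 had the lowest index difference among reciprocal calls more skipped in brain, at -4.34, with a body index difference of -3.93. The A probe was listed at 0 in brain, against 4.58 in testis, and the other 8 tissues read between 0.831 and 2.18. C1:A read 0.591 in brain and 4.82 in testis, and A:C2 was listed at 0 in brain and read 4.09 in testis. Values stop at 0, so the size is not exact. The skipping junction was alike, at 5.07 in brain and 4.89 in testis, with 3.52 to 5.98 elsewhere. The flanks were alike too, with C1 at 4.94 in brain and 5.33 in testis. Testis thus carried both forms at high signal while brain showed the skipped form alone. The index was -4.78 in brain, below the -3.86 to -1.75 of the other 8, and -0.44 in testis, above them.

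In Ben1883 the flanks, A and both inclusion junctions were higher in testis, with a level difference of -2.43, and the skipping junction was not. The A probe read 0.809 in brain and 4.72 in testis, C1:A read 0.860 and A:C2 1.91 in brain, and both were higher in testis, at 3.45 and 5.37. C1:C2 read 1.42 in brain and 1.13 in testis, near the INT medians in both, so there was no clear skipped form in either tissue. C1 read 1.36 in brain and 4.72 in testis, whereas C2 read 3.42 in brain and 4.77 in testis. The centred differences were thus unlike, at -3.44 for C1 and -1.43 for C2, and their mean is a rough measure of level. The index was -0.04 in brain, inside the range of the other 8 (-0.68 to 1.59), and 3.28 in testis. It differed together with the level here, and the body index difference was smaller, at -1.56.

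**Figure D4:**
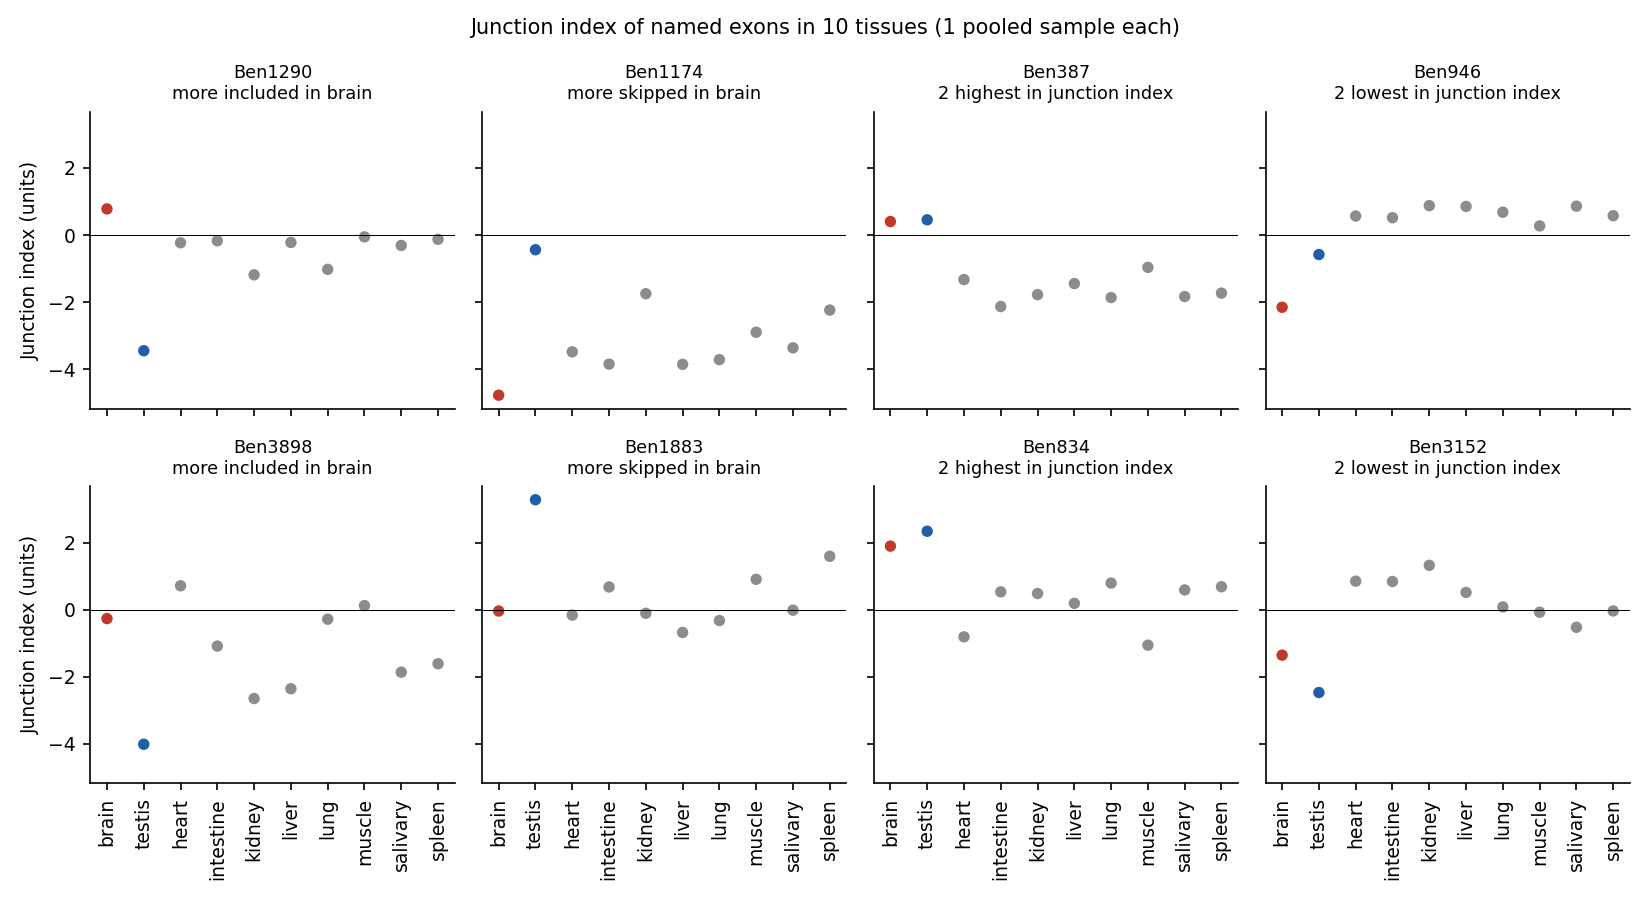
Junction index (units, arrays centred) of 8 named exons in brain (red), testis (blue) and the other 8 tissues (grey), 1 pooled sample each. In the first 4 brain and testis differ by 3.32 to 4.34 units; in the last 4 both lie on the same side of all other tissues.

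Testis was the tissue farther from the other 8 more often than brain in the included set, and the skipped set was split about evenly. Testis was farther than brain from the median of the other 8 in 36 of the 51 exons more included in brain, and brain in 15. For the 32 exons more skipped in brain, testis was farther in 18 and brain in 14. In the included set testis alone was outside the range of the other 8 in 25 exons and brain alone in 11. In the skipped set this held for testis alone in 16 and for brain alone in 10. The tissues parted outright, with brain above all other tissues and testis below, in 12 exons of the included set, Ben1290 among them. In Ben1290 signal in the other 8 was weak, as given above. Brain was lowest and testis highest in 4 exons of the skipped set, including Ben1174. The medians of brain and testis minus the other 8 were 0.96 and -1.95 in the included set, and -1.10 and 1.83 in the skipped set. Brain and testis are set against the same 8 samples here. Selecting a large difference between brain and testis also favours exons in which either lies outside the range of the other 8. The shares over all tested exons were not counted, so these counts describe the called exons alone. In the included set the median brain signals were 2.07 for C1:A, 1.85 for A:C2 and 1.87 for C1:C2, all under brain's detection limit of 3.07. Both flanks were above the limit in both tissues in only 7 of the 51. Whether weak signal in brain decided which tissue was farther was not tested.

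In the 51 exons more included in brain, the index of muscle was nearer to brain than to testis in 41, the most of the 8 tissues, followed by heart in 36 and salivary in 35, whereas kidney was split, with 27 nearer to brain and 24 to testis, and liver likewise with 28 and 23. In the 32 skipped exons muscle was nearer to brain in 14 and to testis in 18. There the counts nearer to brain ran between 13 in spleen and 19 in lung and in salivary.

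**Figure D5:**
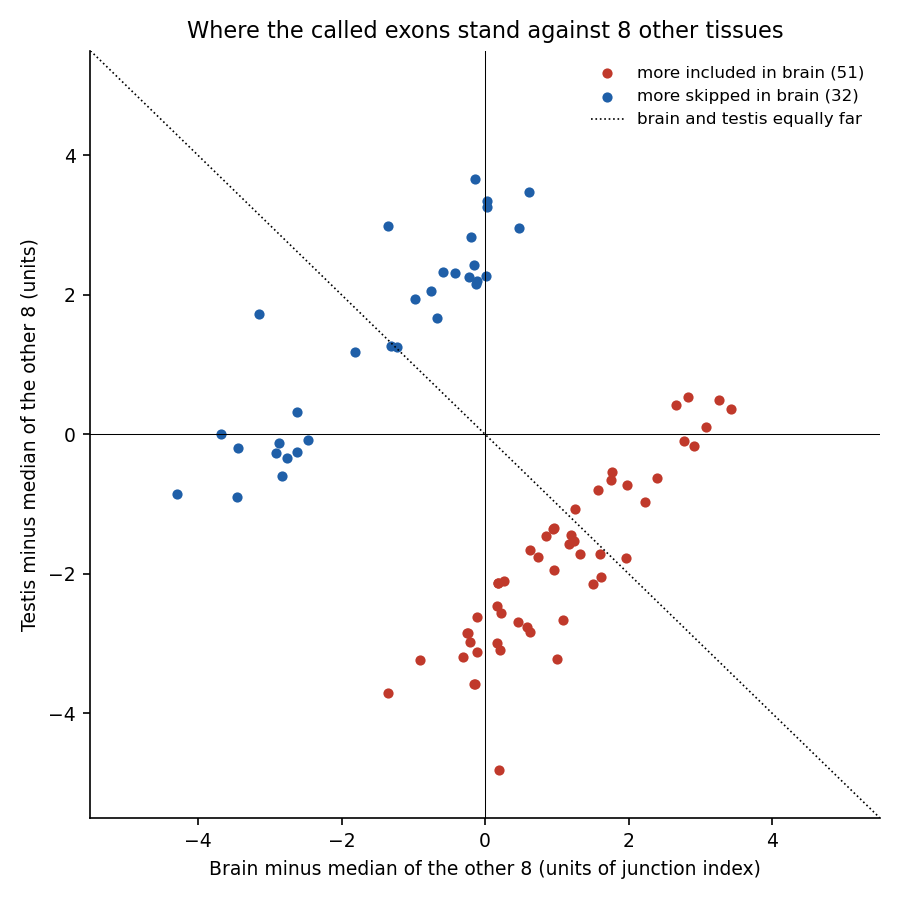
Junction index of the 83 called exons in brain (horizontal) and testis (vertical), each minus the median of the other 8 tissues (units). On the dotted line both tissues are equally far from the other 8; of the 51 exons more included in brain (red) 36 lie on the testis side of it, and of the 32 more skipped in brain (blue) 18 do.

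What the tissues shared was measured by counting events in which they were the 2 highest or the 2 lowest of the 10. With a margin of at least 0.866 units over the third tissue, brain and testis were the 2 highest in level for 21 events (0.672% of 3126). This was the second count among the 45 pairs, after kidney and liver with 50, followed by liver and testis with 15. All pairs together had 203 such events, with a median of 2 per pair. The level was higher in brain in 11 of the 21 and higher in testis in 10, with a median difference of 0.388 units in size. Brain and testis were the 2 lowest in 3 events (0.096%) of the 11 found over all pairs. With no margin, brain and testis were the 2 highest in 215 events.

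Detection gave a further view of what was shared. C1 and C2 were both above the detection limit in 813 events in brain and in 800 in testis, and in 354 in both. These were 43.5% of the brain events and 44.2% of the testis events. Among the 45 pairs this was rank 14 by number and rank 28 as a share of the events seen in either tissue. Of the 354, 70 were seen in all 10 tissues and 15 in brain and testis alone, and the count of 15 had rank 6 of the pairs. A further 152 events were seen only in brain and 166 only in testis.

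Ben2937 had the widest margin in level. C1 read 5.07 in brain and 4.91 in testis, against 0.253 to 2.27 in the other 8, and C2 read 5.24 in brain and 4.90 in testis, against 0.654 to 2.76. The margin over the third tissue was 2.44 units. The skipping junction was also higher in both than elsewhere, at 4.22 in brain and 4.01 in testis, and at most 2.05 in the other 8. The inclusion junction A:C2 read 3.60 in brain but 0.994 in testis, below the INT median. Thus the transcript was shared, and the signal of A:C2 was not. The index was -1.14 in brain and -2.34 in testis, a difference of 1.20 units that did not reach the calling threshold. Ben2719 came next, with a margin of 1.61 units. Its A probe read 4.83 in brain and 5.18 in testis, against 0.886 to 3.42 elsewhere, and A:C2 read 4.65 and 4.87, against 0.249 to 3.23. The indices of Ben2719 were alike, 1.31 in brain and 1.26 in testis, and the third tissue in level was heart.

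Shared exon choices were also present. Among the 2291 exons whose level exceeded the lowest 25% in all 10 tissues, brain and testis had the 2 highest indices, by at least 0.643 units over the third, in 10 (0.436%), and the 2 lowest in 7 (0.306%). They had rank 3 of the 45 pairs in both, behind muscle and spleen (15) and kidney and liver (14) at the high end, and behind muscle and spleen (22) and heart and muscle (9) at the low end. The body index shares no probe with the junction index. It lay on the same side of the median of the other 8 in both tissues in 5 of the 10 and in 5 of the 7. Brain and testis were also the 2 extreme tissues in body index in only 4 of the 10 and 2 of the 7.

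Ben387 was the widest of the shared inclusions among exons with C1 and C2 above the INT median in all 10 tissues. Its flanks were at similar signal in brain and testis, with C1 at 4.36 in each and C2 at 4.91 in brain and 4.99 in testis. The A probe read 4.59 in brain and 4.55 in testis, and between 1.99 and 3.56 in the other 8. C1:A read 4.43 in brain and 4.38 in testis, against 2.74 to 4.05, and A:C2 read 4.25 in brain and 4.398 in testis, against 1.36 to 3.13. The skipping junction was lowest in these tissues, at 3.94 in each, against 4.13 to 4.73. All 4 probes that report the exon choice therefore separated brain and testis from the other 8 with no overlap. The index was 0.40 in brain and 0.45 in testis, and -2.13 to -0.96 elsewhere. The body index was -0.04 in brain and -0.13 in testis, and -3.20 to -0.54 elsewhere. Its low end, -3.20 in intestine and -3.03 in salivary, includes a high C1. C1 read 6.44 and 6.90 there, against 4.07 and 3.99 for C2. In Ben834 the index was 1.90 in brain and 2.34 in testis, and -1.06 to 0.80 elsewhere. There A:C2 read 3.56 in brain and 4.83 in testis, against 1.43 to 3.11, while C1:C2 read 1.39 in brain, below the 1.55 to 3.17 of the others, and 2.07 in testis, within that range.

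At the low end stood Ben946 and Ben3152. The index of Ben946 was -2.15 in brain and -0.58 in testis, and 0.27 to 0.88 in the other 8. Its body index was -0.71 in brain, below the 0.05 to 1.54 of the other 8, but 0.64 in testis, within that range, so the exon-body probe was not low in both. Different probes lay behind the low index in each tissue. In brain the skipping junction was high, at 4.404 against 1.71 to 3.19 in the other 8. In testis it was 2.29, within that range, and C1:A was low, at 1.47 against 2.08 to 3.88. A:C2 was below the other 8 in both, at 1.96 in brain and 1.94 in testis. In testis the flanks of Ben946, at 2.64 (C1) and 1.79 (C2), and every junction probe were under the detection limit of 3.09. In Ben3152 the skipping junction read 3.54 in brain and 5.13 in testis, against 2.06 to 3.10, and it was the highest in these tissues. The flanks it joins were under the detection limit in both, at 2.54 (C1) and 2.73 (C2) in brain and 2.10 and 2.66 in testis. Weak signal therefore limits what the index of Ben3152, and that of Ben946 in testis, says about splicing. Its index was -1.35 in brain and -2.47 in testis, and -0.52 to 1.33 elsewhere. Its body index, -0.06 in brain and -0.32 in testis, lay inside the -0.40 to 0.12 of the other 8 in both, so here too the exon-body probe did not set these tissues apart.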

How the data were processed

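The labels describe an array with exon-body and junction probes, and the deposited table holds 21882 probe values in each of 10 columns, all of which were used. The unit is taken as a score, the value deposited per probe. For its base, dyes, background correction, normalization and probe sequences no statement is given in the sources used here. Arrays were centred on their medians. Level, junction index, body index, calling steps and the 45-pair thresholds (4 robust SDs, the median absolute deviation times 1.4826) are as given above. No model was fitted, since each tissue has 1 sample; precision is limited by the number of arrays. Members, lists and rules were chosen with earlier results of these data known. Because the table names no genes, planned gene lists were not applied, and at most 2 events per direction were named by size, with C1 and C2 above the INT median in both tissues (in all 10 for shared exons). The margin for shared events was 2 robust SDs of the deviations from each event's median. The description by probe pattern, by matched level and by detection was added after seeing the values. Alternatives covered scaling, thresholds, indices, filters and the comparator tissues. The software was pandas 2.3.3 and numpy 2.4.6 under Python 3.11.15, with figures by matplotlib 3.10.9.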

Additional observations from a re-analysis of the deposited data

How the results depend on the processing

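No paired analysis was possible because every tissue is a lone sample and nothing was tested. Of 89 recomputed main values 69 stayed within 1.5 times the reported count and 20 did not. The thresholds and filters change counts by construction, and the cause of the other shifts was not tested. At 2 robust SDs the level was higher in brain in 266 events and in testis in 420, with 188 exons more included and 184 more skipped in brain. At 6 robust SDs the counts were 0, 29, 10 and 5. With 4 robust SDs of the brain minus testis differences alone, 2 events were higher in brain, 46 higher in testis and 20 exons more skipped in brain. Quantile normalization gave 47 events higher in brain and 62 higher in testis. With C1 and C2 over the detection limit (INT probes, 95th percentile) in both tissues, 7 exons were more included and 3 more skipped in brain. With the mean inclusion junction and C1:C2 each over it in at least 1 tissue, the counts were 12 and 7. With no margin, brain and testis were the 2 highest in level in 215 events, the 2 highest in index in 178 and the 2 lowest in 100. With each of the other 8 tissues left out in turn, brain was the farther tissue in 14 to 17 of the exons more included in brain and in 13 to 15 of those more skipped. A threshold from pairs without muscle and spleen, chosen after seeing the data, moved no count by over 1.5 times. Under quantile normalization the small level differences of Ben1174, Ben2719 and Ben387 and the small index differences of Ben387 and Ben834 changed sign. In the 4 named shared exons brain and testis stayed the 2 highest or 2 lowest, and over all exons the counts were 11 and 6, against 10 and 7. Low signal is one limit.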

Other observations

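In 11 events the flanking exons themselves parted, with one flank past 2.92 units and the other level or moved the opposite way. C2 was higher in testis by that size, with C1 not higher there, in 7 events, and C1 was, with C2 not higher, in 2. C2 was higher in brain, with C1 not higher there, in 2, and the reverse arrangement was found in 0. For these events the mean of C1 and C2 is a poor measure of level. Of the 11, 10 met the condition on level for exon calls and 2 were called, against 83 of 2653 tested exons overall (3.13%).

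The INT probes, which enter no index, differed least between brain and testis, with a robust SD of 0.476 units, against 0.849 for C1:C2 and 1.08 for C2. Even so, 5 INT probes were higher in brain and 15 higher in testis by at least 2.92 units. In the events higher in brain by level, INT was higher in brain in 20 of 28 (71.4%), with a median difference of 0.24, against 45.4% of all events. In those higher in testis, INT was higher in testis in 69 of 107 (64.5%), with a median difference of -0.26, against 54.6% of all events, whose median was -0.06.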
